A study of Rattus norvegicus with 6 samples.

Results

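Nucleolar ribosome biogenesis genes encode the proteins that transcribe, cut, modify and fold ribosomal RNA and pack it into the precursors of the ribosomal subunits. The set comprised 39 genes chosen by name: nucleolar processing factors, GTPases, helicases and subunits of RNA polymerase I. A probe set, the group of array probes that reads one transcript, was counted when the platform annotation gave it a single gene symbol. By that rule 38 of the 39 genes had at least 1 probe set, and they had 53 of the 31042 probe sets on the array that are not controls. The exception was Npm1, whose probe sets the annotation shares with a pseudogene. Of the 53 probe sets, 48 were bright enough to be tested, and each of the 38 genes had at least 1 of these, among 10591 named genes tested in all. The genes were proposed with results of the diet comparison known, so the differences between the diet groups below are a description of these arrays and not an independent test.

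The samples were mesenterial adipose tissue (fat around the vessels that run to the gut) from newborn wildtype Sprague-Dawley rats, an outbred strain. In the deficient group (3 arrays) the dams had been fed a diet with 0 IU of vitamin D per kg, and in the adequate group (3 arrays) a diet with 1000 IU per kg. Total RNA was labelled with biotin and read on Affymetrix Rat Genome 230 2.0 arrays, 1 array per sample. Litter, sex and whether a group's samples are separate animals are not stated in the labels, so the errors may cover only technical spread. Values are linear MAS5 signals in arbitrary intensity units, and changes are differences of group means in log2 signal, deficient minus adequate, with the standard error (SE) of a limma fit across all tested probe sets.

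The deficient arrays were not alike. The first principal component of all tested probe sets, with 49.5% of the variance, placed deficient arrays 1 and 2 at 43.1 and 46.4 and the other arrays between -26.2 and -18.5. Hybridisation controls are foreign RNAs added in fixed amounts, averaged here in log2 and returned to the linear scale. They read 3102 and 4371 on deficient arrays 1 and 2, against 414 on deficient array 3 and 325 to 510 on the adequate arrays. Between the diet groups the two-sided exact permutation p was 0.3, where the smallest possible with 3 against 3 is 0.1. The ratio of 3' to 5' beta-actin probes, which rises when RNA is degraded or labelled short, read 7.56 and 6.80 for deficient arrays 1 and 2 and 2.35 for deficient array 3, against 2.39 to 4.81 on the adequate arrays. Of 12 fat cell markers, 7 were bright enough to be tested, among them Fabp4, Lpl and Cd36, while Adipoq, Plin1, Plin4, Cidec and Pparg lay below the limit. The part of these array differences in the values below was not tested, and the main values are therefore also given for deficient array 3 alone.

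Ribosome production starts in the nucleolus, where RNA polymerase I copies the ribosomal DNA into a long precursor. Small nucleolar ribonucleoproteins (snoRNPs) guide its chemical modification, and large assemblies of processing factors, driven by GTPases and helicases, release the small and large subunit precursors. The pathway is most active in growing and dividing cells, and the transcription factor Myc is a known activator of many of its genes.

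The direction of the set as a whole depended on the arrays used. The median log2 change of the 38 genes, each read by its brightest tested probe set, was -0.07, against -0.09 for all 10591 tested genes. With deficient array 3 as the only deficient array it was 0.15, with 30 of the 38 genes above 0, against -0.03 and 45.6% above 0 for all tested genes. After adjustment for the hybridisation controls it was 0.13, with 27 above 0, against -0.03 and 44.9%. These controls were high only on deficient arrays 1 and 2, so this adjustment largely repeats the comparison of deficient array 3 alone. It is not an independent check. In the fit with all 6 arrays, the value was higher in the deficient group for 15 of the 38 genes (39.2% of all tested genes) and lower for 23. None passed an adjusted p (Benjamini-Hochberg, limma) of 0.05, and 0 of all 18625 tested probe sets did, although 2647 (14.2%) had an unadjusted p under 0.05. At an unadjusted p under 0.05, 5 genes were higher (4.75% of all tested genes) and 1 was lower (10.1%). Only Gnl3 was higher at that p with deficient array 3 alone (1.94% of all tested genes) and after that adjustment (1.19%). In 6 genes each deficient array read above each adequate array (4.97% of all tested genes), and in 1 each read below (13.3%). The single genes spread from -0.51 for Gnl2 to 0.68 for Gnl3. The plot of log2 changes by role shows both signs within most roles.

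**Figure D1:**
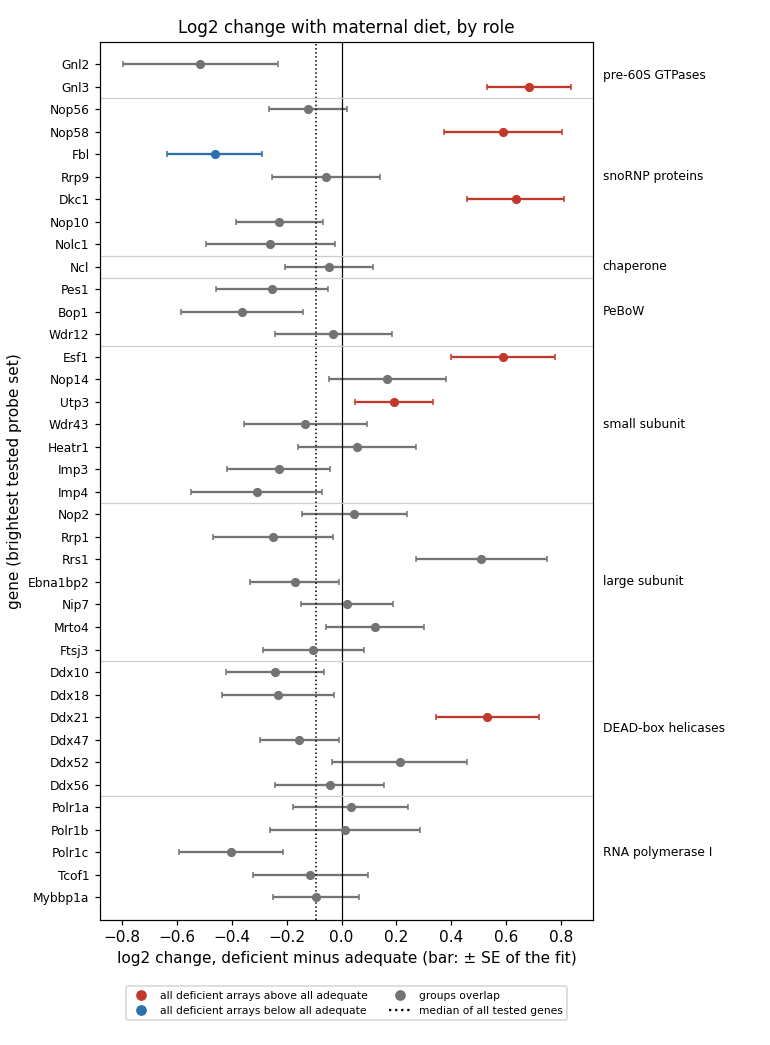
Log2 change (deficient minus adequate, x axis) of the 38 genes, each read by its brightest tested probe set and grouped by role, with bars for ± SE of the limma fit. Red marks the 6 genes whose deficient arrays all read above the adequate arrays, blue the 1 gene where all read below, and the dotted line the median of all tested genes at -0.09.

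The 2 GTPases of the large subunit precursor stood at opposite ends. Gnl3, also called nucleostemin, is a GTPase of nucleoli in stem and progenitor cells that acts in large subunit processing. Its signal was 1965, 2114 and 2269 on deficient arrays 1 to 3, against 1180, 1456 and 1325 on adequate arrays 1 to 3. The groups did not overlap, and deficient array 3, which resembled the adequate arrays in its quality measures, had the highest value of all. The log2 change was 0.68 ± 0.15 (SE, n = 3 each), a fold of 1.61. With deficient array 3 as the only deficient array it was 0.79, and with the hybridisation controls as a covariate 0.74 ± 0.18. Gnl2, whose yeast counterpart prepares the large subunit precursor for export, read 441, 602 and 1060 in the deficient group, against 796, 1078 and 956 in the adequate group. Only deficient arrays 1 and 2 were low, and deficient array 3 lay within the adequate range. Its log2 change was -0.51 ± 0.28 (SE), and 0.18 with deficient array 3 alone.

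The proteins of the box C/D snoRNPs, which methylate the ribose of ribosomal RNA, differed among themselves. Nop58, a scaffold protein of these particles, read 8548, 7738 and 4781 in the deficient group, against 4639, 4340 and 4608 in the adequate group. Deficient arrays 1 and 2 were far above all others, while deficient array 3 was just above the adequate range. The log2 change was 0.59 ± 0.22 (SE), and 0.08 with deficient array 3 alone. Nop56, the partner scaffold of Nop58, read 1798, 1964 and 2123 in the deficient group, against 2181, 2123 and 2090 in the adequate group, with overlap and a log2 change of -0.12 ± 0.14 (SE). Its other tested probe set was at -0.38. Fibrillarin (Fbl), the methyltransferase itself, read 2032, 1906 and 2785 in the deficient group, against 3157, 2919 and 3061 in the adequate group. All deficient arrays were below all adequate arrays, with deficient array 3 the nearest. The log2 change was -0.46 ± 0.17 (SE), a fold of 0.726, and -0.13 with deficient array 3 alone. Rrp9, a protein of the U3 particle, was at -0.06 ± 0.20 (SE).

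The box H/ACA snoRNPs convert uridine to pseudouridine. Their catalytic protein dyskerin (Dkc1), which is also a telomerase component, read 1931, 2045 and 1402 in the deficient group, against 1119, 1076 and 1228 in the adequate group. The groups did not overlap. The log2 change was 0.64 ± 0.18 (SE), a fold of 1.55, and 0.30 with deficient array 3 alone. Nop10, a small structural protein of the same particle, read 4585, 4404 and 5563 in the deficient group, against 5209, 6008 and 5754 in the adequate group. Here deficient arrays 1 and 2 were the lowest, and the log2 change was -0.23 ± 0.16 (SE). Nolc1, a chaperone of both kinds of snoRNP, was at -0.26 ± 0.23 (SE), and at -0.12 ± 0.17 by its other tested probe set. With deficient array 3 alone Nop10 was at -0.02 and Nolc1 at 0.32, so their lower values rested mainly on deficient arrays 1 and 2. In the fit with all arrays, Dkc1 and Nop10 of the same particle were thus read on both sides of 0.

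**Figure D2:**
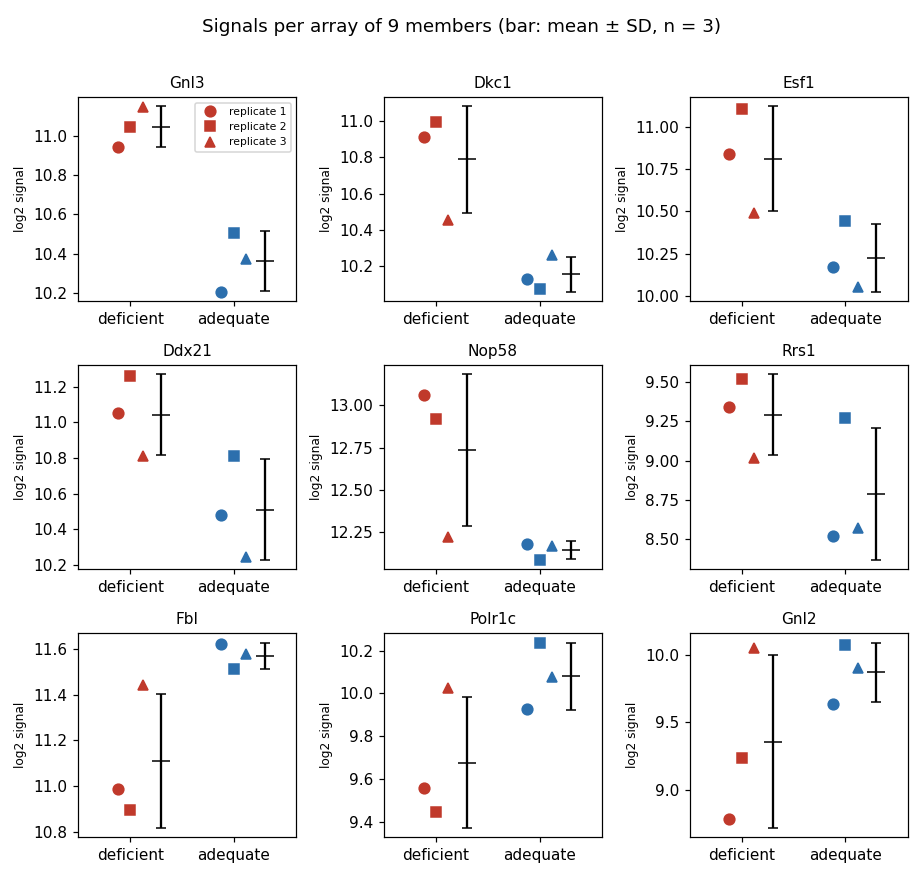
Log2 signal per array (y axis) of the 9 genes with the smallest unadjusted p, deficient arrays in red left of adequate arrays in blue, with a marker shape for each replicate number and black bars for mean ± SD (n = 3). In each gene but Gnl3, deficient array 3 (triangle) lies nearer to the adequate mean than deficient arrays 1 and 2, while in Gnl3 it has the highest value.

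Among the small subunit processome factors, Esf1 had the largest difference. Esf1, which in yeast is needed to make small subunit RNA, read 1833, 2203 and 1438 in the deficient group, against 1154, 1393 and 1063 in the adequate group, without overlap. The log2 change was 0.59 ± 0.19 (SE), and 0.27 with deficient array 3 alone. Utp3, another processome protein, read 1823, 1719 and 1671 in the deficient group, against 1636, 1465 and 1473 in the adequate group. These groups did not overlap either, although the log2 change was small, at 0.19 ± 0.14 (SE). Imp4, a U3-associated protein, read 651, 629 and 1194 in the deficient group, against 984, 911 and 1036 in the adequate group. Deficient array 3 was the highest and deficient arrays 1 and 2 the lowest of the arrays, for a log2 change of -0.31 ± 0.24 (SE). Its partner Imp3 was at -0.23, Wdr43, which in human cells links transcription and processing, at -0.13, Nop14 at 0.17, and Heatr1, the counterpart of a large yeast processome protein, at 0.06.

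DEAD-box helicases unwind RNA duplexes in the precursors. Ddx21, which in human cells acts in both RNA polymerase I transcription and processing, read 2127, 2458 and 1799 in the deficient group, against 1429, 1795 and 1214 in the adequate group. The groups did not overlap, but the margin between deficient array 3 and adequate array 2 was narrow. The log2 change was 0.53 ± 0.19 (SE), a fold of 1.45, and 0.30 with deficient array 3 alone. Ddx10 read 425, 371 and 496 in the deficient group, against 500, 524 and 494 in the adequate group, a log2 change of -0.24 ± 0.18 (SE). Only deficient arrays 1 and 2 were below the adequate range. Ddx18 was at -0.23, Ddx47 at -0.15, Ddx52 at 0.21 and Ddx56 at -0.04, each with overlapping groups.

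In large subunit processing, the PeBoW complex of Pes1, Bop1 and Wdr12 had 3 lower values of 3, a direction that rested on deficient arrays 1 and 2. Bop1 read 267, 342 and 453 in the deficient group, against 424, 422 and 491 in the adequate group, a log2 change of -0.36 ± 0.22 (SE), with deficient arrays 1 and 2 below the adequate range and deficient array 3 within it. Pes1 was at -0.25 and Wdr12 at -0.03. With deficient array 3 alone all 3 were above 0, Pes1 at 0.17, Bop1 at 0.03 and Wdr12 at 0.30. Rrs1, which helps bring the 5S particle into the large subunit, read 651, 735 and 518 in the deficient group, against 366, 617 and 379 in the adequate group. Adequate array 2 lay within the deficient range, and the log2 change was 0.51 ± 0.24 (SE). The other factors differed less by group mean. Nop2, an RNA methyltransferase, was at 0.05, Rrp1 at -0.25, Ebna1bp2 at -0.17 and Nip7 at 0.02. Mrto4, a homologue of a ribosomal stalk protein, was at 0.12 and the methyltransferase Ftsj3 at -0.10. With deficient array 3 alone these genes were, in the same order, at 0.12, 0.26, 0.07, 0.30, 0.04 and -0.32. Without that array Rrp1 was at -0.51 and Nip7 at -0.12, so these 2 group means average arrays of opposite direction.

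In the catalytic core of RNA polymerase I the group means were close, but the deficient arrays were not. The largest subunit, Polr1a, read 216, 257 and 270 in the deficient group, against 223, 226 and 277 in the adequate group, a log2 change of 0.03 ± 0.21 (SE). Polr1b, the other core subunit, read 214, 166 and 333 in the deficient group, against 261, 212 and 209 in the adequate group, for a log2 change of 0.01 ± 0.27 (SE). The groups overlapped in both, and for Polr1b deficient array 2 was the lowest and deficient array 3 the highest of all. The Polr1b change was 0.56 with deficient array 3 alone, 0.58 ± 0.26 (SE) after adjustment for the hybridisation controls, and -0.26 without deficient array 3. Polr1c, a subunit shared with RNA polymerase III, read 753, 697 and 1041 in the deficient group, against 972, 1207 and 1080 in the adequate group. Deficient arrays 1 and 2 were below the adequate range, and the log2 change was -0.40 ± 0.19 (SE), or -0.06 with deficient array 3 alone. Treacle (Tcof1), a cofactor of ribosomal DNA transcription, was at -0.11 and Mybbp1a, a nucleolar repressor of it, at -0.09. Nucleolin (Ncl), an abundant nucleolar RNA-binding protein, read 5869, 7166 and 7069 in the deficient group, against 6364, 7508 and 6833 in the adequate group, a log2 change of -0.04 ± 0.16 (SE).

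Across arrays the genes fell into a recurring pattern. On deficient array 3, 30 of the 38 genes read above the adequate mean, with a mean deviation of 0.15 in log2, against -0.06, 0.08 and -0.02 on adequate arrays 1 to 3. All tested genes had a mean of -0.04 on that array. Of the 38 genes, 18 read above all 3 adequate arrays there (23.3% of all tested genes) and 3 below (32.1%). The adequate arrays form the mean used here, so their own deviations are narrowed, while those of a deficient array are not. Deficient array 3 was the highest array in 12 of the 38 genes (16.7% of all tested genes). Adequate array 2 was the highest in 11 (13.9%), so the 2 arrays were close by this count. Deficient arrays 1 and 2 had mean deviations of -0.12 and -0.06, against -0.07 and -0.10 for all tested genes. The 38 genes thus lay below that background on deficient array 1 and above it on deficient array 2. On deficient array 1, 23 genes read below all adequate arrays (43.4% of all tested genes) and 9 above (29.6%), and on deficient array 2, 19 read below (48.1%) and 8 above (27.4%). In 19 of the 38 genes the mean of deficient arrays 1 and 2 was below and deficient array 3 above the adequate mean, as in 25.5% of all tested genes. The group means of these genes therefore average arrays that point in opposite directions.

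**Figure D3:**
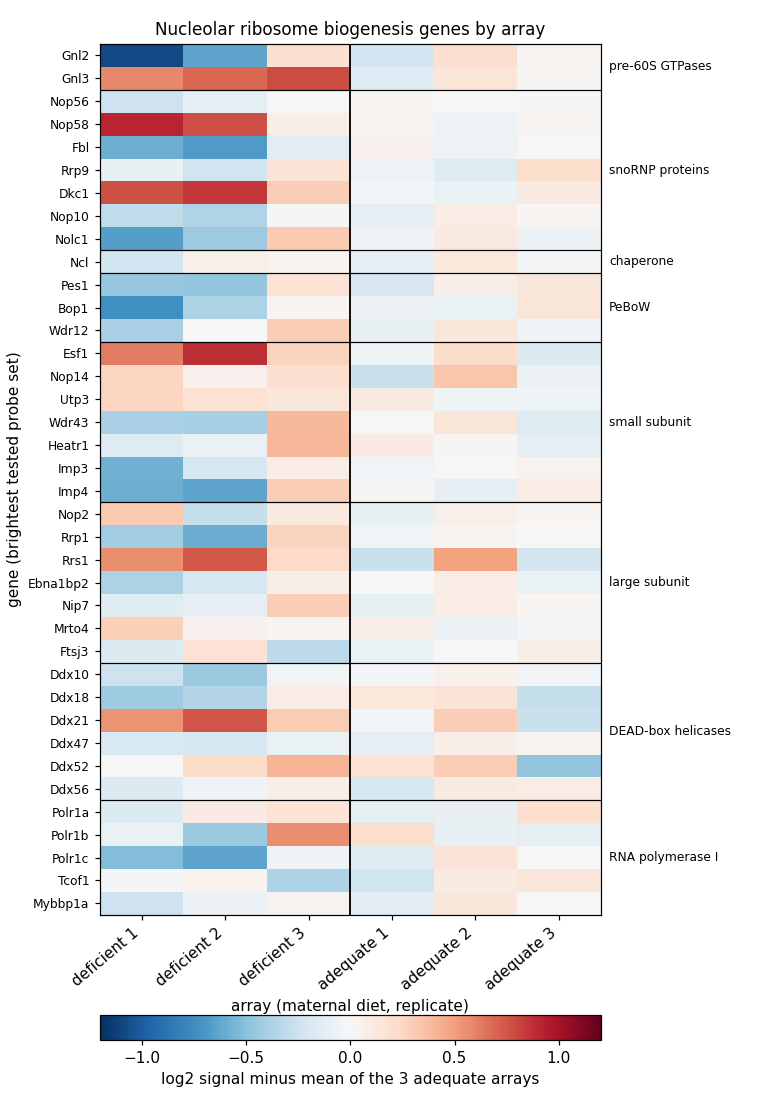
Log2 signal minus the mean of the 3 adequate arrays (colour, red higher and blue lower) for the 38 genes (rows, by role) on the 3 deficient arrays, left of the line, and the 3 adequate arrays. On deficient arrays 1 and 2 a few genes (Nop58, Dkc1, Esf1, Ddx21, Rrs1, Gnl3) read high while most read low, and on deficient array 3 there are 30 genes above the adequate mean.

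Leaving out arrays changed the calls. Without deficient array 3, 11 of the 38 genes passed an adjusted p of 0.05 in limma, 5 higher (8.83% of all tested genes) and 6 lower (13.2%). Over all probe sets that fit called 3614, 19.4%. The 5 higher genes were Nop58 at 0.85, Dkc1 at 0.80, Esf1 at 0.75, Ddx21 at 0.65 and Gnl3 at 0.63. The 6 lower genes were Gnl2 at -0.86, Fbl at -0.63, Imp4 at -0.61, Polr1c at -0.58, Nolc1 at -0.55 and Rrp1 at -0.51. Except for Gnl3, each of these 11 had a difference nearer 0, or of the opposite sign, on deficient array 3. Without deficient array 2, 2 genes were higher at an unadjusted p under 0.05 (1.38% of all tested genes), Gnl3 and Dkc1. After adjustment for the hybridisation controls the changes of 4 of the 5 higher genes were smaller, 0.14 ± 0.15 (SE) for Nop58, 0.32 ± 0.17 for Dkc1, 0.26 ± 0.19 for Esf1 and 0.29 ± 0.21 for Ddx21.

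Of the 38 genes, 9 had at least 2 tested probe sets, and in 4 of them the brightest and the next brightest gave changes of opposite sign (44.4%, against 41.3% of the 2502 tested genes with several). Of these 4, Ddx18 differed most between its probe sets. Its brighter probe set read 463, 486 and 660 in the deficient group, against 680, 693 and 510 in the adequate group (log2 change -0.23), and its dimmer one 194, 193 and 158, against 141, 109 and 81 (0.75), where the groups did not overlap. For Ddx21 the brighter probe set is the one described above, and the dimmer one read 156, 167 and 282 in the deficient group, against 209, 184 and 208 in the adequate group (-0.04). Thus the higher Ddx21 signal of the deficient group was read by 1 of its 2 probe sets. The dimmer Imp4 probe set read 179, 190 and 265 in the deficient group, against 179, 249 and 168 in the adequate group (0.09). Mrto4 read 431, 366 and 363 in the deficient group, against 374, 338 and 351 in the adequate group by its brighter probe set (0.12), and 148, 325 and 486, against 269, 469 and 244, by the other (-0.13). Esf1 had 3 tested probe sets, all with a higher value. The second read 1856, 1919 and 844 in the deficient group, against 643, 449 and 639 in the adequate group, a log2 change of 1.34 ± 0.30 (SE), and the third 663, 744 and 1024, against 750, 702 and 690, a change of 0.16 ± 0.19. The third probe set was highest on deficient array 3, where the other 2 were lower than on deficient arrays 1 and 2. Ddx52, Nolc1, Nop56 and Wdr43 had the same sign by both probe sets. The positions of the probes within the transcripts were not used here.

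**Figure D4:**
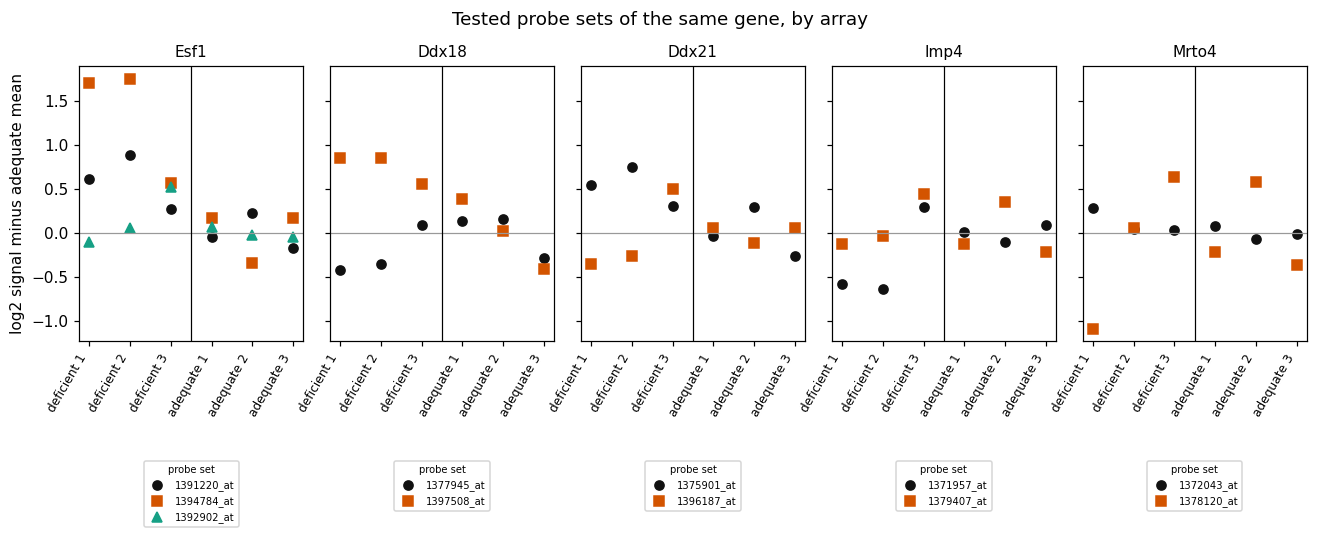
Log2 signal minus the adequate mean (y axis) of each tested probe set of Esf1, Ddx18, Ddx21, Imp4 and Mrto4 on the 3 deficient and then the 3 adequate arrays (x axis), with a colour and marker for each probe set. The probe sets of Ddx18 and Ddx21 lie on opposite sides of 0 on deficient arrays 1 and 2, and those of Esf1 spread from about the adequate mean to over 1.

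Promoter sequences of the set were also examined, as a description. The RefSeq promoter table (GRCr8 assembly) held 33 of the 38 genes, and the 250 bases before the annotated start were searched on both strands for 4 motifs. The Myc-type E-box CACGTG was present in 6 of the 33 windows, 18.2%, against 6.18% of the windows of all 27457 genes in the table. The ETS-type motif CCGGAAG was present in 12, 36.4%, against 8.11%. The NRF1-type motif, with 1 base left free, was present in 5, 15.2% (Esf1, Ddx56, Mybbp1a, Polr1a and Rrp9), against 4.3% of all windows. This broader form was adopted after a search for the palindromic form alone, which was present in 1, Esf1, 3.03%, against 0.87% of all windows. TATAAA was present in 1, Nop58, 3.03%, against 14.1%. The windows of these genes were also richer in CpG, with a median of 15 CG dinucleotides against 6, which was not matched in these shares. In the fit with all arrays, the motifs were not tied to the sign of the change. CACGTG was found in Gnl3 and Dkc1, and also in Ddx18, Mybbp1a, Pes1 and Rrp1, which had lower values by the brightest probe set. The other tested probe set of Ddx18 was at 0.75. With deficient array 3 alone Ddx18 was at 0.09, Mybbp1a at 0.04, Pes1 at 0.17 and Rrp1 at 0.26, where 30 of the 38 genes were above 0. CCGGAAG was found in Nop58, Dkc1 and Ddx21, and also in Fbl, Imp4 and Polr1c. A match describes the letters only.

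The windows of the 6 genes with non-overlapping groups and an unadjusted p under 0.05 are shown 5′ to 3′ in the direction of the gene, with motif matches on either strand in capitals; Fbl is the gene with lower values. The Gnl3 window is chr16:6219783-6220032 on the minus strand. The Dkc1 window is chrX:157751401-157751650 on the plus strand. The Nop58 window is chr9:68614824-68615073 on the plus strand. The Esf1 window is chr3:147961486-147961735 on the minus strand. The Ddx21 window is chr20:31097239-31097488 on the minus strand. The Fbl window is chr1:92597157-92597406 on the plus strand.
Gnl3: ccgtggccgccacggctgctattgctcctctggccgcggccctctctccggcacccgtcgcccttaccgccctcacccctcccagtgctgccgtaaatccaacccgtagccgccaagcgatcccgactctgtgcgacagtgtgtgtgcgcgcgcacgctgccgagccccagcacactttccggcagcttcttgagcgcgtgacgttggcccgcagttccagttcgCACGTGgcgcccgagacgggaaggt
Dkc1: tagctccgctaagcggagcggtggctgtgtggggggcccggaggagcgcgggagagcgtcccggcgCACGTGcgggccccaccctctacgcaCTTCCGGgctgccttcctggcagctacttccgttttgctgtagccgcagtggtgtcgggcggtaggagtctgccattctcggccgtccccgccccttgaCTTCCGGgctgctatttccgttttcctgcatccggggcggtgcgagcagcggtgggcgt
Nop58: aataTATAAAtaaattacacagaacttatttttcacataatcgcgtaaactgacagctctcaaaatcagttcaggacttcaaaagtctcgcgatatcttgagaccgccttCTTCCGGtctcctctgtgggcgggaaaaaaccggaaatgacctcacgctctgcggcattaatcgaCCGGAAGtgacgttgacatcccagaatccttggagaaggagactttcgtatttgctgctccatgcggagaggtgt
Esf1: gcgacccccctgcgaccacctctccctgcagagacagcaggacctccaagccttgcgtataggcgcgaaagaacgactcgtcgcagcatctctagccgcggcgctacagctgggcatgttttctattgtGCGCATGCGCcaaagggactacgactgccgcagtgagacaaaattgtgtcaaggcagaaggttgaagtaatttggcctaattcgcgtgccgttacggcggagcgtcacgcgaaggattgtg
Ddx21: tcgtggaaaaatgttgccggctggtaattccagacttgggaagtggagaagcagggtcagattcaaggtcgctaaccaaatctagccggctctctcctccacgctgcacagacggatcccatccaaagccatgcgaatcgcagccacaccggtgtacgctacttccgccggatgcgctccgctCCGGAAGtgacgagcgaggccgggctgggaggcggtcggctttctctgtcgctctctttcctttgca
Fbl: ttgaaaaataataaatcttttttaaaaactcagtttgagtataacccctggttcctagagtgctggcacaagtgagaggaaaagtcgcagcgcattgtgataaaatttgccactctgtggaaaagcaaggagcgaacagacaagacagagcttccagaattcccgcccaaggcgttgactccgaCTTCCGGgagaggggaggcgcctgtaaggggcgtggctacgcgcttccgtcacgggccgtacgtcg
In Gnl3 the E-box begins 25 bases before the start, and in Dkc1 184 bases before it. The CCGGAAG matches, which read CTTCCGG where they lie on the other strand, begin 140 and 75 bases before the start in Nop58, 158 and 59 in Dkc1, 67 in Ddx21 and 66 in Fbl. The Nop58 TATAAA match lies at the far end of its window, 246 bases before the start.

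Several of these genes carry snoRNA genes within their own span, as many vertebrate snoRNAs are cut from introns of host genes. By the GRCr8 gene table, 5 of the 38 genes, 13.2%, enclosed at least 1 annotated snoRNA gene, against 2.80% of the 10561 tested genes found in the table. These were Gnl3 with 3, Nop58 with 5, Nop56 with 5, Ncl with 3 and Wdr43 with 3. Their log2 changes were 0.68, 0.59, -0.12, -0.04 and -0.13, so hosts were found on both sides of 0. The table gives no strand for this match.

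The other genes of the pathway, 106 genes in 4 lists, were read in the same way. Of 100 tested, 39 had higher values (39.2% of all tested genes). At an unadjusted p under 0.05 in limma, 3 were higher (4.75% of all tested genes) and 8 lower (10.1%). After adjustment 0 of these genes passed, and their median log2 change was -0.06, against -0.09 for all tested genes. Their mean deviation was -0.19, -0.09 and 0.12 on deficient arrays 1 to 3, against -0.01, 0.07 and -0.06 on adequate arrays 1 to 3. Deficient array 3 had the highest value, but the adequate arrays form the mean, which narrows their own deviations. The order of deficient array 3 and adequate array 2 is therefore not settled by these values. In the list of RNA polymerase I subunits and initiation factors (11 tested, 6 with higher values) Taf1d, a subunit of the promoter selectivity factor, read 5122, 6340 and 1600 in the deficient group, against 1543, 1267 and 1749 in the adequate group. Only deficient arrays 1 and 2 were high, and the log2 change was 1.31 ± 0.42 (SE). Polr1h was at -0.63, Polr1g at 0.54 and Taf1c at 0.17, while Ubtf, which binds ribosomal DNA promoters, was at -0.08 and Rrn3, the initiation factor that recruits the polymerase, at -0.16.

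In the further large subunit factors (39 tested, 12 with higher values, median -0.10), Eif6, which keeps the subunits from joining too early, read 949, 1107 and 2527 in the deficient group, against 2840, 2681 and 2823 in the adequate group, a log2 change of -1.01 ± 0.31 (SE). Deficient arrays 1 and 2 were far below the other 4. Mdn1, a giant ATPase of precursor remodelling, read 598, 610 and 599 in the deficient group, against 856, 942 and 774 in the adequate group, a change of -0.50 ± 0.16 (SE) in which all deficient arrays were alike. Gnl3l, the paralogue of Gnl3, was at -0.46 and Nsa2 at -0.60, both lower without overlap, as were 13.3% of all tested genes. The small subunit factors had a median of -0.04 (41 tested, 20 with higher values), with Aatf at -0.50, Utp18 at 0.68, Ddx49 at 0.31 and Utp15 at 0.34. The snoRNP list had 1 higher value among 9 and a median of -0.11, with Ruvbl1 at -0.22, Znhit3 at -0.27, Nop9 at -0.24 and Nhp2 at -0.11.

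Myc read 865, 829 and 652 in the deficient group, against 1115, 692 and 860 in the adequate group, a log2 change of -0.17 ± 0.21 (SE) with overlap. Of 9 tested genes of its network 3 had higher values. Mga, a repressor of the network, was at 1.13 by its brightest probe set and at 0.11 by the other tested one. Mnt, also a repressor, was at 0.37. Both were higher without overlap by the brightest probe set, as were 4.97% of all tested genes. Max, the shared partner, was at -0.22 and Mxd4 at -0.34.

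Markers of several cell types also differed between arrays. The summed signal of 8 fibroblast and progenitor markers (8 of 8 tested, 6 with higher values) was 149251, 148455 and 72695 on deficient arrays 1 to 3, against 69599 to 82678 on the adequate arrays. That of 8 smooth muscle markers (8 of 8 tested, 6 with higher values) was 137045, 135030 and 91038, against 72250 to 87764. Both lists were highest on deficient arrays 1 and 2. So was the summed signal of erythroid markers (4 tested of 8, 1 with a higher value), at 34022, 35481 and 20586, against 19829 to 21699. The mean deviation of the erythroid markers in log2 was 0.03, -0.12 and -0.14 on deficient arrays 1 to 3. On adequate arrays 1 to 3 it was 0.42, -0.29 and -0.13, so the sum did not describe all 4 genes. The fat cell markers (7 tested of 12, 3 with higher values) summed to 4367, 4137 and 6475, against 5167 to 5630. By this sum they were lowest on deficient arrays 1 and 2 and highest on deficient array 3. By mean deviation in log2 they were at -0.18, -0.25 and 0.11 on deficient arrays 1 to 3. On adequate arrays 1 to 3 they were at -0.10, -0.03 and 0.13, so adequate array 3 was the highest. Lymphocyte markers (7 tested of 10, all 7 with lower values) summed to 3437, 3305 and 4821, against 4140 to 6793. Markers of proliferating cells (13 tested of 14, 6 with higher values) summed to 31528, 28654 and 25032, against 26864 to 28215. Adequate array 3 stood apart in markers of intestinal epithelium (5 tested of 7), at 4771 against 882 to 1232 on the other 5 arrays, and of hepatocytes (6 tested of 8), at 5966 against 1321 to 2907. Their part in the values above was not tested. In such bulk tissue, fewer cells of a type and less RNA per cell cannot be told apart.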

How the data were processed

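Sample titles gave the groups and replicate numbers. The authors deposited intensity values on a linear scale, made with MAS5 and Affymetrix Expression Console (versions not named) per the submitters' processing notes. Each array has a 2% trimmed mean of 500.1 to 500.2, as computed from the values, so a difference in total RNA is scaled away. Detection calls and background settings were not used here. Signals were log2 transformed without an offset. The 57 control probe sets were left out, and 18625 probe sets were tested, those whose log2 signal, averaged over the 6 arrays, reached the 40th percentile (88.2 on the linear scale). No column was a copy of another (0), and r between arrays, across probe sets, was 0.931 to 0.975. The fit used limma 3.58.1 in R 4.3.3 (two-sided; lmFit, then eBayes with trended variance; Benjamini-Hochberg adjustment) and was tested on simulated data. The number of arrays limits the precision.

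The members, gene lists and rules were chosen with earlier results of these data known. Values on every array are given for the 14 members with the smallest unadjusted p, for members fixed by name, and for members whose tested probe sets differ in sign. From each further pathway list up to 4 genes with the smallest unadjusted p were named, with Myc, Ubtf and Rrn3 by name. Symbols of the lists were matched through Entrez identifiers. Npm1 is not reported, since no probe set maps to it alone. The alternatives left out each array in turn, kept deficient array 3 as the only deficient array, weighted arrays, took replicate number as a block or the hybridisation controls as covariate, and averaged all tested probe sets per gene. Others were median centring or quantile normalization, an offset of 50, the 60th percentile or no filter, robust or untrended eBayes, and removal by lowess of the trend with gene length. Figures were drawn with matplotlib 3.10.9.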

Additional observations from a re-analysis of the deposited data

How the results depend on the processing

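The median log2 change of the 38 genes, -0.07 in the fit as reported, was 0.15 when deficient array 3 stood alone, 0.13 after adjustment for the hybridisation controls, and below 0 under the other alternatives, between -0.16 (without deficient array 3) and -0.01 (gene length trend removed). With 1 array left out at a time it ranged from -0.16 to -0.03. The number of genes higher at an unadjusted p under 0.05, 5 as reported, ranged from 2 (without deficient array 2; 1.38% of all tested genes) to 6 (without deficient array 3; 13.8%) with 1 array left out. It was 1, Gnl3, with the hybridisation covariate (1.19% of all tested genes), where the changes of the other 4 genes were themselves smaller. That covariate was high only on deficient arrays 1 and 2, so its fit largely repeats the comparison of deficient array 3 alone. The cause of the smaller changes was not tested. The number of probe sets past the adjusted threshold, 0 as reported, was 3614 without deficient array 3 (range 0 to 3614 with 1 array left out) and 3462 with array weights, which gave deficient array 3 the lowest weight, 0.262; for both, the cause was not tested beyond this. With array weights 9 of the 38 genes passed (20.5% of all tested genes): Ddx21, Dkc1, Esf1, Fbl, Gnl3, Imp4, Nop58, Polr1c and Rrs1. Single genes moved by more than their replicate SD in 25 of 38 cases with deficient array 3 alone, in 24 with the covariate, in 4 when probe sets were averaged per gene and in 1 (Ncl, -0.24) after quantile normalization. The sign changed for 15, 12, 2 and 2 genes in these settings. It also changed for 6 genes with array weights, for 6 without deficient array 3 and for 4 with the gene length trend removed. With another array left out it changed for 1 to 5 genes. With the replicate block, the median was -0.07, 6 genes were higher at an unadjusted p under 0.05 (6.42% of all tested genes), and 0 probe sets passed the adjusted threshold. Deviations of same-numbered arrays correlated at 0.11, 0.15 and 0.01, across probe sets; each array correlated best with its own number, but the third pair only weakly, so the numbers were not taken to pair the samples. Without detection calls, signals just above the filter cannot be told from background.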
